A study of Mus musculus with 72 samples.

Results

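High isoleucine was compared with low isoleucine in the livers of B6F mice, across every gene with enough counts to be tested. The 12 libraries compared, of 72 in the series, were chosen by their diet label, WD High Ile for 6 and WD Low Ile for the other 6, and by the class name B6F in their titles. B6F mice are females of the B6 strain, which is written C56BL/6J in the strain field and C57BL/6J in the design text, and no transgene or gene deletion is named for them. Both groups shared a Western diet, a fat-rich and sugar-rich feed, for 12 weeks and a fast of 16 h before the liver was sampled. The 6 B6F control libraries, labelled WD Control, shared the same conditions and are set beside them. The isoleucine content of each feed is not given in the sources used here. The design text and the treatment text disagree on the age at which the diets began, with 6 weeks in the former and 18 weeks in the latter, and the age field reads 18 weeks. Nothing in the labels ties a library to its own animal or names a time of day or a batch. The p-values describe how libraries vary, and some of that variation may be technical. The same high and low diets in B6M (B6 males) and DBAF (DBA/2J females), 12 libraries each, served only for comparison.

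Isoleucine is a branched-chain amino acid that animals must take from food. Its carbon skeleton is broken down in mitochondria to acetyl-CoA and propionyl-CoA, and a shortage of amino acids is sensed in cells through uncharged tRNA, which raises translation of the factor ATF4, and through the kinase complex mTORC1. The liver turns the nitrogen of surplus amino acids into urea, makes glucose and ketone bodies during a fast, stores and exports lipid, and has a strong daily rhythm and many genes that differ between the sexes.

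The 12 libraries held between 17662463 and 29238371 expected counts each, and 14954 of the 50307 genes in the table had enough counts to be tested. Levels are given as CPM, counts-per-million of the scaled library size. The label of the tissue was checked against hepatocyte markers, 11 of which were measured. Their summed level lay between 83100 and 133000 CPM, and albumin (Alb) alone at 49000 CPM or more. Of the pancreas and adipose tissue markers 1 of 7 and 2 of 6 were measured, with summed levels of at most 5.66 and 7.28 CPM. On the first principal component of the 18 B6F libraries, which held 33.2% of the variance, the 6 low libraries lay between 20.3 and 33.3, the 6 high libraries between -25.6 and -7.37 and 5 of the 6 control libraries between -28.1 and -12.7. The control library numbered 4 lay at 16.7, beside the low libraries, and results that use the controls are given with and without it. RNA from bulk tissue cannot tell fewer cells of a type from less RNA per cell.

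On high isoleucine, the livers held more RNA of interferon-induced genes, of the clock genes Dbp and Nr1d1 and of the cytochromes Cyp3a41a, Cyp3a41b and Cyp3a16, and less RNA of most urea cycle enzymes, of 7 of 14 methionine cycle genes, of the transaminases Got1 and Tat, and of Cdkn1a and Eif4ebp3. Of the 14954 genes, 2857 (19.1%) passed an adjusted p of 0.05 in edgeR's quasi-likelihood test, 1544 higher (10.3%) and 1313 lower (8.78%) on high than on low isoleucine. The median log2 fold change over all genes was -0.0063. At least 2-fold were 349 of those that rose and 225 of those that fell, together 3.84% of the genes tested. Scaled by library totals alone, which moved the median log2 fold change to 0.0769, 3021 genes were called, 2247 of them higher. The 6 high and the 6 low libraries did not overlap for 1207 genes, 8.07% of those tested. Libraries of a group that share a number in their title, such as 12N and 12R, deviated together more than other libraries of the group, with correlations of 0.015 to 0.304 against -0.532 to 0.016. With that number as a random block 1760 genes were called, and with the counts of such pairs summed, which leaves 3 values against 3, 1478.

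**Figure D1:**
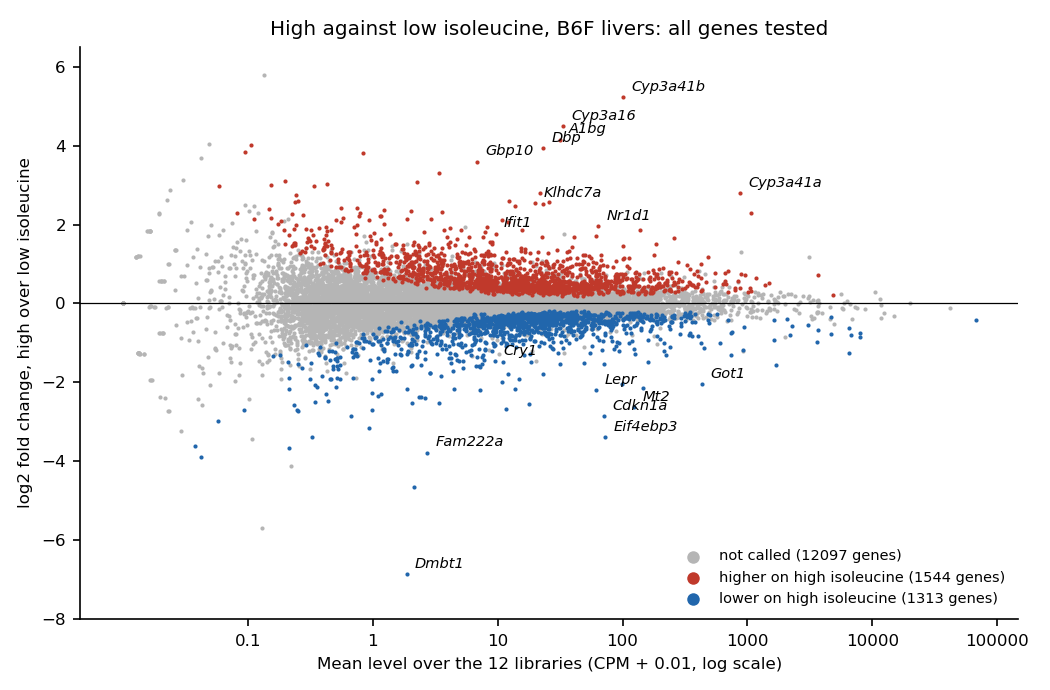
Each point is a gene, placed by its mean level over the 12 libraries (CPM + 0.01, log scale) and its log2 fold change of high over low isoleucine; red and blue points passed the adjusted p of 0.05. The 1544 higher and 1313 lower genes spread over the whole range of levels, with Cyp3a41b at 5.24 as the largest rise and Dmbt1 at -6.86 as the largest fall among the labelled genes.

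The best represented group among the genes that rose was the interferon response. Interferons are released on viral or bacterial sensing and act through STAT and IRF factors on genes that block viral replication and recruit immune cells. Of 33 measured members of the list 30 rose and 0 fell, with a median log2 fold change of 1.04, and in 24 the high and low libraries did not overlap. Ifit1, which binds foreign RNA caps, lay at 9.56, 14.7 and 19.4 CPM (lowest, median and highest) in the high libraries and at 2.89, 4.37 and 6.31 CPM in the low libraries. No high library was as low as any low library, and the log2 fold change was 1.77 ± 0.29 (SE, adjusted p = 1.1e-05). The chemokine Cxcl10, which draws T cells to tissue, lay at 2.45, 3.77 and 6.92 CPM against 0.712, 1.05 and 1.84 CPM. Again the groups did not overlap, and the log2 fold change was 1.80 ± 0.34 (adjusted p = 0.00011). The receptor transport protein Rtp4 rose by 1.31 ± 0.21 on the log2 scale, the IFIT copy Ifit3b by 1.5 ± 0.27 and the RNA sensor Oas2 by 1.19 ± 0.22. Ifit3b has a near-identical neighbour in Ifit3, and reads of the pair cannot be told apart with certainty. The 3 members that did not pass the test were Eif2ak2 at 0.26, Stat2 at 0.08 and Trim25 at -0.28. With the title number as a block 23 of the 33 members were called, and with pairs summed 24.

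Promoters of these genes were searched for the pattern GAAANNGAA, a core of the interferon-stimulated response element to which STAT and IRF factors bind, on both strands. The RefSeq promoter table of the GRCm38.p6 build gives 300 bases for each start, 250 before it and 50 after it, and matched 24 of the 33 measured members. The pattern was present in 16 of the 24 (66.7%), in 13 of the 21 among them that rose (61.9%) in 998 of the 11024 tested genes with a promoter (9.05%) and in 2812 of all 32851 promoters (8.56%). The windows below are shown because they belong to members named above and to Gbp7, described next. Capitals mark the match nearest to the start, and TTCNNTTTC is the same pattern read on the other strand.
Ifit1, chr19:34640780-34640838, plus strand: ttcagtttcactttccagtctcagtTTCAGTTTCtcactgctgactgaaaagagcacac
Ifit3b, chr19:34607798-34607856, plus strand: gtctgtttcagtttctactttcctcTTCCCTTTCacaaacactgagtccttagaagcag
Cxcl10, chr5:92349069-92349127, minus strand: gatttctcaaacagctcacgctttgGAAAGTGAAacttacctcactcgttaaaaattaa
Gbp7, chr3:142530259-142530317, plus strand: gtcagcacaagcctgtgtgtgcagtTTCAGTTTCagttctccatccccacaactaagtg
The Ifit1 and Ifit3b promoters hold 3 matches each, and those of Cxcl10 and Gbp7 hold 1 each. A match is a description of the sequence and not a bound site.

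Guanylate-binding proteins and immunity-related GTPases, which attack vacuoles of intracellular pathogens and are induced above all by interferon gamma, rose in 13 of 18 measured members, with 0 lower and a median of 1.23. Gbp10 lay at 5.84, 11.1 and 21.0 CPM in the high libraries and at 0.345, 0.882 and 2.24 CPM in the low libraries. The groups were apart, and the rise was 3.60 ± 0.61 on the log2 scale, with an adjusted p of 2.2e-05. Gbp6, its close copy on the same stretch of chromosome 5, rose by 1.85 ± 0.38, and the division of reads between the pair is uncertain. Gbp7 rose by 1.32 ± 0.27, with 10.5 to 14.4 CPM in the high and 3.26 to 6.89 CPM in the low libraries. Iigp1, the most abundant of the named members, lay at 197, 241 and 340 CPM against 97.1, 107 and 123 CPM and rose by 1.22 ± 0.19. The 5 members that missed the threshold, Gvin1, Tgtp2, Gbp4, Gbp5 and Gbp9, had log2 fold changes between 0.47 and 1.02. The GAAANNGAA pattern was present in 9 of the 10 members with a promoter in the table (90%).

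The machinery that loads peptides on MHC class I rose in 8 of 14 measured members, with 0 lower. The immunoproteasome subunits Psmb9 and Psmb10 rose by 1.08 ± 0.26 and 0.84 ± 0.20, the peptide transporter subunit Tap1 by 0.75 ± 0.20 and the loading factor Tapbpl by 0.48 ± 0.13, and none of these 4 genes had overlapping groups. The heavy chains H2-K1 and H2-D1 did not pass, at 0.26 ± 0.16 and 0.21 ± 0.13. With pairs summed 5 members were called. The GAAANNGAA pattern was present in 3 of the 11 members with a promoter to search (27.3%). Among the 7 of these that rose it was present in 1 (14.3%), beside 9.05% of the tested genes with a promoter. Of 7 MHC class II genes only Ciita, their master activator, was called, at 1.01 ± 0.34 (adjusted p = 0.029, 0.094 with the block). The other 6 lay between 0.63 and 0.74.

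Markers of other cell types are set beside these groups. The summed level of 15 measured markers of infiltrating and lipid-associated macrophages was 130, 172 and 191 CPM in the high libraries and 82.9, 97.9 and 128 CPM in the low libraries, without overlap. Of its members 4 rose and 0 fell, beside 10.3% higher and 8.78% lower over all genes. The 4 were the monocyte chemokine Ccl2 (2.17 ± 0.53), the elastase Mmp12 (2.13 ± 0.66), lysozyme (Lyz2, 1.06 ± 0.29) and the fractalkine receptor Cx3cr1 (0.94 ± 0.31). With the block 1 of them was called, and without high library 2 there were 2. Markers of Kupffer cells, the resident macrophages of the liver, summed to 366, 563 and 1190 CPM against 320, 398 and 488 CPM. Of 13 measured members Marco, Folr2, Adgre1 and Clec4f rose and 0 fell, beside 10.3% higher and 8.78% lower over all genes. With the block 1 member was called. Marco, a scavenger receptor, rests on high library 3, which held 184 CPM against a median of 11 CPM, and without it had an adjusted p of 0.5. Kupffer markers were called 2 times without that library or low library 1, and 7 times without high library 5 or with scaling by library totals. Lymphocyte markers summed to 11.8 to 21.8 CPM on high and 10.9 to 18.6 CPM on low isoleucine, and granzyme B (Gzmb, 1.31) was called among 18, but not with the block (adjusted p = 0.13) or without high library 3 (0.23). Of 6 erythroid markers Alas2 was called, at 0.77, but not with the block (adjusted p = 0.06) or without high library 2 (0.065). Of the 3 measured neutrophil markers 0 were called, and Ly6g, Cxcr2, Retnlg and Mpo were too low to test. The sum of the 11 measured hepatocyte markers moved the other way, with 83100 to 93900 CPM on high and 104000 to 133000 CPM on low isoleucine. Much of it was Alb, at 49000 to 60900 CPM against 64900 to 89100 CPM. Of the 11 markers 2 fell, Alb (-0.42 ± 0.11) and the apolipoprotein Apoa1 (-0.84 ± 0.20), and 0 rose. That share is close to the 19.1% called over all genes, and the list median was -0.16. With scaling by library totals 1 was called higher and 2 lower. The part of these cell markers in the interferon, GTPase and MHC results was not tested.

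**Figure D2:**
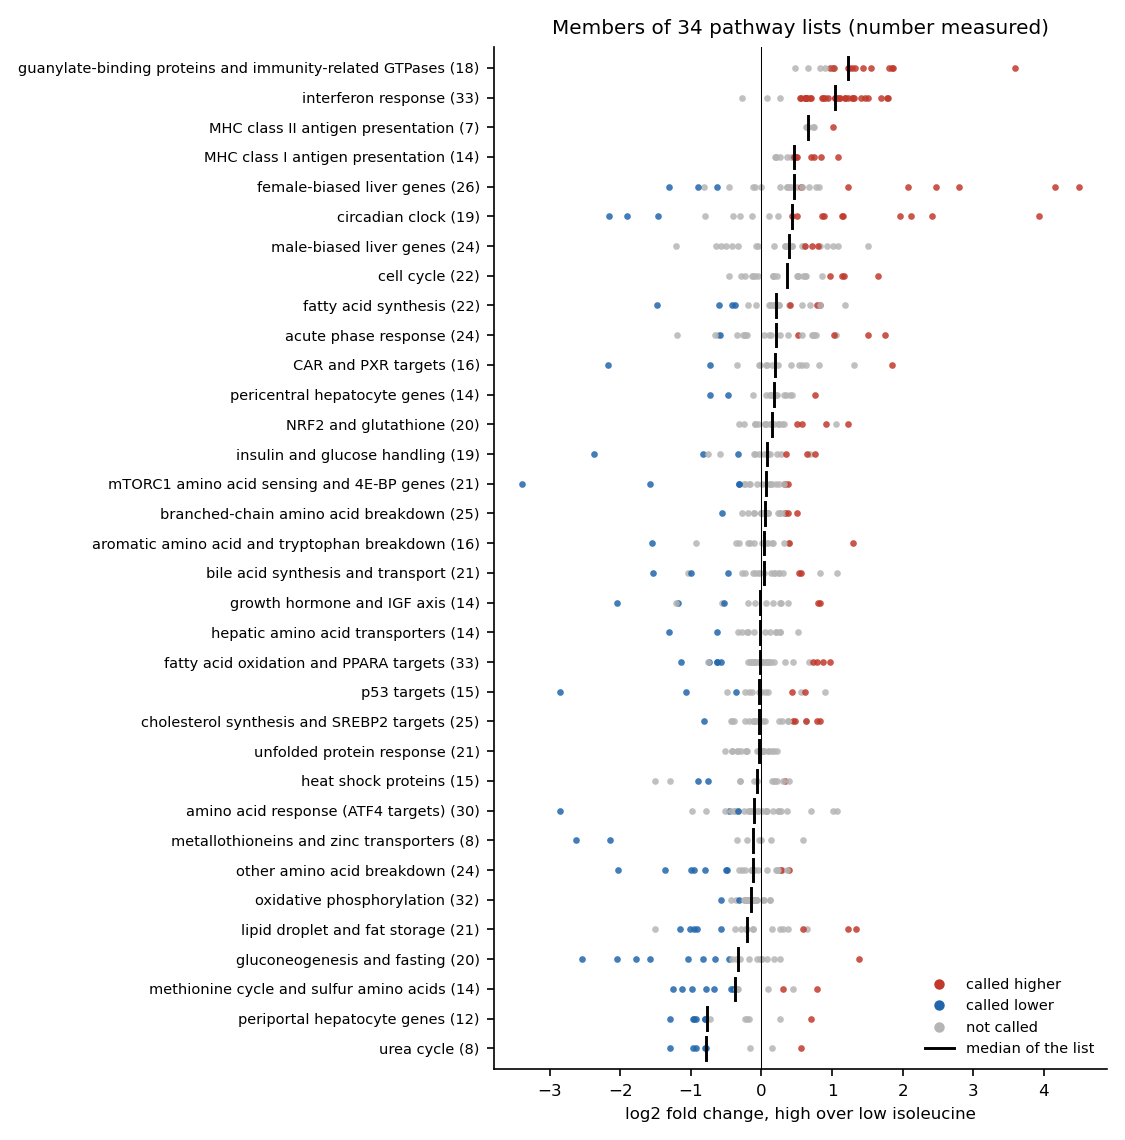
Each point is a measured member of a gene list, placed by its log2 fold change of high over low isoleucine, with members called higher in red and lower in blue, and the black bar is the median of the list. The GTPase (1.23) and interferon (1.04) medians lie farthest to the right and the periportal (-0.77) and urea cycle (-0.79) medians farthest to the left.

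The circadian clock genes changed in both directions. In the clock, BMAL1 (Arntl) with CLOCK or NPAS2 drives the PER and CRY repressors, the REV-ERB receptors (Nr1d1 and Nr1d2), which repress Arntl, and output factors such as Dbp. Of 19 measured members 10 were higher and 3 lower on high isoleucine, with a median of 0.43. Dbp lay at 23.3, 39.9 and 74.9 CPM in the high libraries and at 1.63, 2.35 and 4.87 CPM in the low libraries. The groups lay far apart, and the log2 fold change was 3.93 ± 0.52 (15.3-fold, adjusted p = 3.3e-07). Nr1d1 lay at 74.7, 102 and 128 CPM against 4.62, 26.3 and 45.8 CPM, also without overlap, and rose by 1.96 ± 0.33. Its relative Nr1d2 rose by 1.16 ± 0.15, with 51.9 to 66.7 CPM against 17.8 to 33.7 CPM. Cry1 went the other way, with 4.04, 4.74 and 7.05 CPM in the high and 10.8, 13.4 and 18.4 CPM in the low libraries, and its log2 fold change was -1.47 ± 0.20. The activators fell with it: Arntl lay at 3.96 to 8.46 CPM on high and at 17.0 to 26.8 CPM on low isoleucine (-1.90), and Npas2 at 1.1 to 2.28 CPM against 4.03 to 10.2 CPM (-2.16). Per3 (2.12), Bhlhe41 (2.41), Tef (1.15), Per2 (0.89), Bhlhe40 (0.85), Hlf (0.51) and Cry2 (0.43) rose. Per1 did not pass (-0.81, adjusted p = 0.13), nor, among others, did Clock, Rora, Nfil3 and Ciart. The hour of sampling is not given in the sources used here. With the block 10 of the 13 calls were counted, and 10 with pairs summed.

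The E-box CACGTG, which BMAL1 and its partners bind, was present in 5 of the 16 clock members with a promoter in the table (31.2%) in 1265 of the 11024 tested genes with a promoter (11.5%) and in 2349 of all 32851 promoters (7.15%). Among those that rose it was present in 2 of 8, and among those that fell in 1 of 3. Of the 4 clock genes named by rule, Cry1 is the one whose 300-base window holds it, and it is printed for that reason with the match nearest to the start in capitals.
Cry1, chr10:85185084-85185139, minus strand: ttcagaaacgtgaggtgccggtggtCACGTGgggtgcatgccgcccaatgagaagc
CACGTG reads the same on either strand, so that this is 1 site, and a window without it says only that these letters are not in it.

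Some of the largest rises were genes whose level differs between the sexes in mouse liver. Cyp3a41b (chr5:145558664-145584730), a female-biased cytochrome P450, lay at 51.8, 179 and 396 CPM on high and at 0.389, 1.68 and 17.3 CPM on low isoleucine. The groups did not overlap, and it rose by 5.24 ± 1.04 on the log2 scale, with an adjusted p of 0.00035. Cyp3a41a rose by 2.79 ± 0.66, from 11.4 to 483 CPM in the low libraries to 736 to 2240 CPM in the high ones, and Cyp3a16 by 4.50 ± 0.80. These 3 genes are near copies in a cluster on chromosome 5, so the split of reads among them is uncertain. A1bg (chr15:60896859-60923012), a female-biased plasma glycoprotein, lay at 15.5, 45.0 and 119 CPM against 1.78, 3.35 and 5.17 CPM, without overlap, and rose by 4.15 ± 0.61 (adjusted p = 2.3e-06). Ntrk2, the receptor of brain-derived neurotrophic factor, rose by 2.07 ± 0.31 and the hydroxyacid oxidase Hao2 by 2.47 ± 0.42. Over the whole female-biased list 7 of 26 members rose and 3 fell, beside 10.3% higher and 8.78% lower over all genes. With pairs summed 6 in all were called. Among those that fell were the organic anion carrier Slco1a4 (-0.89) and the fatty acid hydroxylase Cyp4a10 (-0.63).

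Male-biased genes gave 3 rises among 24 members and 0 falls: Ghr, Mup3 and Ugt2b1. That share is close to the 10.3% called higher over all genes. The growth hormone receptor Ghr, whose hormone sets much of the sex bias of the liver, lay at 274, 300 and 367 CPM against 145, 176 and 220 CPM and rose by 0.80 ± 0.12 (adjusted p = 3.5e-06), with no overlap. Its target Igf1 did not pass, at -0.09 ± 0.16 (adjusted p = 0.74). Igfals, the acid-labile partner of circulating IGF1, rose by 0.82 ± 0.22. The IGF binding proteins Igfbp2 and Igfbp1 fell by 1.18 ± 0.31 and 2.05 ± 0.62. The major urinary protein genes Mup15 and Mup17, which encode pheromone carriers, rose by 2.80 ± 0.72 and 2.59 ± 0.64, with overlapping groups, and belong to a family of near-identical copies whose reads may be shared.

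The remaining genes of the 10 largest rises were Klhdc7a and Hectd2os. Klhdc7a (chr4:139960220-139968026), which encodes a kelch-domain protein, lay at 17.7, 30.7 and 57.6 CPM on high and at 1.90, 4.36 and 11.8 CPM on low isoleucine, and rose by 2.54 ± 0.33 (adjusted p = 3.3e-07) without overlap. Hectd2os, a transcript antisense to Hectd2, rose by 2.58 ± 0.39, and since strand-aware counting is not stated its reads cannot be told apart from those of Hectd2.

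In the urea cycle, which disposes of amino acid nitrogen, 5 of 8 members fell and 1 rose, with a median of -0.79, and the same total of 6 was called with the block, with pairs summed and without any single library. Asl, which cleaves argininosuccinate, lay at 217, 394 and 717 CPM on high and at 646, 1050 and 1400 CPM on low isoleucine, with a slight overlap, and its log2 fold change was -1.30 ± 0.28 (adjusted p = 0.00052). Arg1, the last enzyme of the cycle, lay at 729, 1140 and 1540 CPM against 1630, 2160 and 2560 CPM, without overlap, and fell by 0.93 ± 0.22. Cps1, which commits ammonia to the cycle, fell by 0.97 ± 0.23, the ornithine carrier Slc25a15 by 0.78 ± 0.18 and Ass1 by 0.80 ± 0.24. Otc, the mitochondrial ornithine transcarbamylase, was the member that rose, by 0.56 ± 0.12.

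The methionine cycle, which supplies methyl groups and cysteine, had 7 members that fell and 2 that rose of 14. Mat1a, which makes S-adenosylmethionine, lay at 3680, 4910 and 6210 CPM against 6390, 8300 and 10700 CPM, without overlap, and fell by 0.79 ± 0.16 (adjusted p = 0.00017). Ahcy, which clears S-adenosylhomocysteine, fell by 0.67 ± 0.15, the betaine-dependent methyltransferase Bhmt by 1.26 ± 0.28 and cystathionine lyase Cth by 1.12 ± 0.28. The creatine-forming Gamt and the cobalamin-dependent Mtr rose by 0.79 and 0.31.

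Among other amino acid enzymes, the largest fall was in Got1, the cytosolic aspartate transaminase. It lay at 96.6, 172 and 272 CPM on high and at 449, 663 and 1030 CPM on low isoleucine, well apart, and fell by 2.04 ± 0.42 (adjusted p = 0.00032). Tat, the tyrosine transaminase induced by fasting hormones, lay at 406 to 1340 CPM against 1690 to 4070 CPM and fell by 1.56 ± 0.29. The lysine enzyme Aass fell by 1 ± 0.19, the serine dehydratase-like Sdsl by 1.36 ± 0.34 and histidase (Hal) by 0.80 ± 0.21. Of the 24 members of that list 7 fell and 2 rose, but the total called came to 5 with the block, 4 with pairs summed, 4 without high library 2 or high library 6 and 5 without low library 3. In tryptophan breakdown Ido2 rose by 1.30 ± 0.22, from 9.75 to 35 CPM on low to 46.9 to 57.9 CPM on high isoleucine.

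Periportal hepatocytes, which carry out most ureagenesis, share several of these genes, and in the periportal list 6 of 12 fell and 1 rose. The riser was Cyp2f2 (0.71 ± 0.16), a cytochrome used as a periportal marker that is not an enzyme of nitrogen disposal. Of 14 pericentral genes 1 rose (Lect2, 0.76 ± 0.16) and 2 fell, Cyp27a1 and the Wnt target Axin2. The pericentral share is close to the 19.1% called over all genes.

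Of 25 measured genes of branched-chain amino acid breakdown, the pathway of isoleucine itself, 4 rose and 1 fell, a share close to the 19.1% called over all genes, with a median of 0.05. Acadsb, the dehydrogenase for the short branched chain derived from isoleucine, lay at 77.8, 84.4 and 95.9 CPM against 53.7, 67.7 and 80.1 CPM and rose by 0.34 ± 0.10 (adjusted p = 0.011). Pcca, a subunit of propionyl-CoA carboxylase, rose by 0.37 ± 0.11, Auh by 0.33 ± 0.09 and the phosphatase Ppm1k, which activates the ketoacid dehydrogenase, by 0.51 ± 0.17. Hsd17b10, which oxidises a later intermediate of isoleucine, fell by 0.56 ± 0.18. The ketoacid dehydrogenase subunit Bckdhb did not pass, at -0.19 ± 0.11 (adjusted p = 0.22). With pairs summed 2 genes of the list were called, 3 with the block or without low library 2, 8 by voom with quality weights and 9 with scaling by library totals, 8 of them higher.

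**Figure D3:**
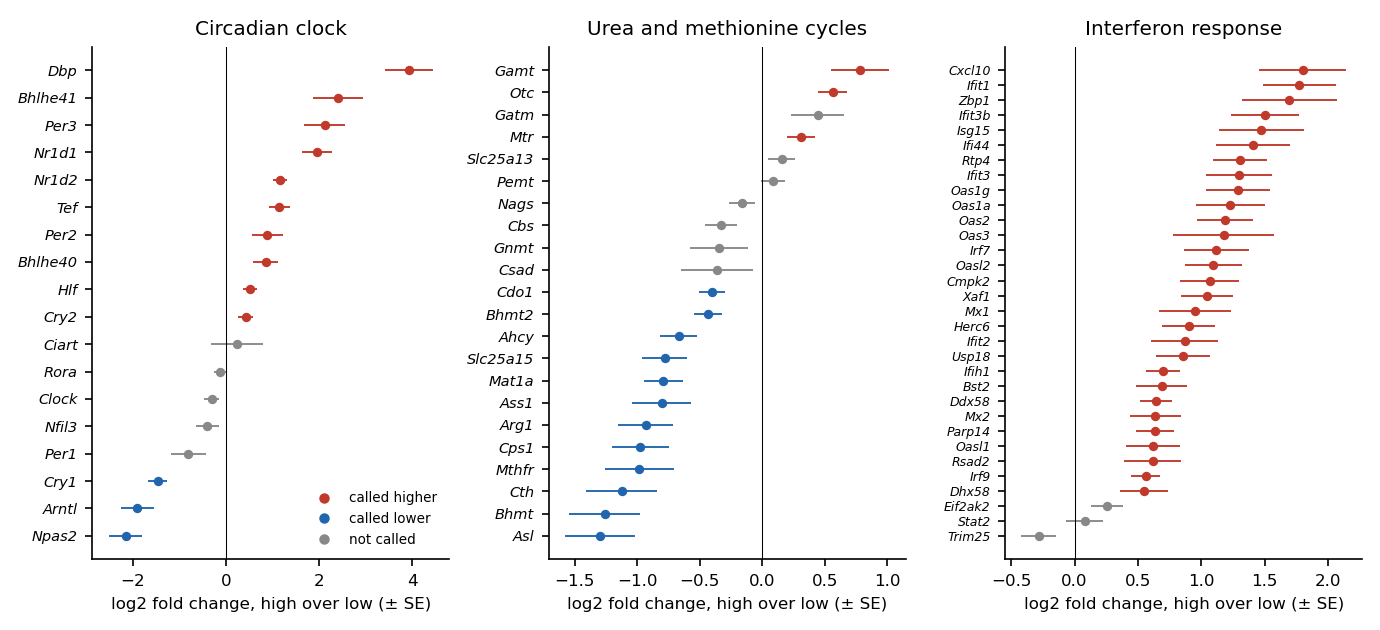
Points are members of the circadian clock, the urea and methionine cycles, and the interferon response with their log2 fold change of high over low isoleucine, and bars are standard errors of the fit. In the clock Dbp (3.93) and Npas2 (-2.16) mark the ends, 12 members of the middle panel lie below 0 and passed, and every interferon gene drawn that passed lies above 0; 1 clock and 1 interferon member are not drawn.

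Of 30 measured ATF4 targets, which respond to amino acid shortage, 0 rose and 3 fell, Asns, Gars and Atf4 itself, beside 19.1% called over all genes. With pairs summed 1 was called, by voom with quality weights 5, and with only the 12 or the 18 B6F libraries in the fit 6. Asns, the asparagine synthetase, was close to the limit of detection, with 0.114, 0.149 and 0.232 CPM on high and 0.576, 1 and 2.66 CPM on low isoleucine. The groups did not overlap, and its log2 fold change of -2.85 ± 0.86 (adjusted p = 0.014) was not called with the block (0.18), with pairs summed (0.095) or without low library 2 (0.053). Atf4 lay at 61.0, 67.1 and 76.4 CPM against 76.1, 92.2 and 105 CPM and fell by 0.46 ± 0.13. The hormones Fgf21 and Gdf15 did not pass. Fgf21 lay at 9.52, 15.6 and 23.4 CPM against 10.3, 15.3 and 48.4 CPM (-0.51 ± 0.41). Gdf15 lay at 1.70, 2.96 and 5.08 CPM against 0.237, 0.494 and 6.54 CPM (1.01 ± 0.50, adjusted p = 0.15), and without low library 1, which held the 6.54 CPM, its adjusted p was 0.00017. Trib3, a further ATF4 target, lay at 0.28 ± 0.25.

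Among mTORC1-related genes Eif4ebp3, a repressor of cap-dependent translation, showed a large fall. It lay at 1.79, 7.77 and 33.4 CPM on high and at 52.9, 114 and 268 CPM on low isoleucine, without overlap, and fell by 3.39 ± 0.57 (adjusted p = 1.9e-05). Ddit4, a stress inhibitor of mTORC1, fell by 1.57 ± 0.40, but its log2 fold change was -0.95 without low library 2 (adjusted p = 0.068), and it was not called with pairs summed (0.057) or with only the 12 (0.095) or 18 (0.077) B6F libraries in the fit. Rraga fell by 0.31 ± 0.10 and Nprl3 by 0.31, while Flcn and Eif4ebp2 rose by 0.37 ± 0.13 and 0.33. Together 6 of 21 were called, beside 19.1% over all genes, and with pairs summed 1. Without single libraries 2 to 5 were called, and Flcn and Rraga lost their calls in 12 and 7 of 23 alternatives.

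Cdkn1a (chr17:29090976-29100727), the p21 inhibitor of cyclin-dependent kinases, lay at 7.15, 12.0 and 37.7 CPM on high and at 54.0, 132 and 163 CPM on low isoleucine. The groups did not overlap, and it fell by 2.86 ± 0.59 (7.26-fold, adjusted p = 0.00036). The p53 list did not follow it as a whole, with 3 of 15 lower and 2 higher, beside 8.78% lower and 10.3% higher over all genes. Trp53inp1 fell by 1.07 ± 0.21, whereas the death receptor Fas and Ccng1 rose by 0.62 ± 0.16 and 0.43 ± 0.13. The nuclear receptor Nr4a1 lay at 1.73, 2.87 and 6.52 CPM against 3.22, 18.8 and 45.6 CPM and fell by 2.67 ± 0.47, as the only one called of 14 immediate early genes. The metal-binding metallothioneins Mt2 and Mt1 fell by 2.63 ± 0.51 and 2.15 ± 0.47, and Mt2 lay at 22.7, 35.8 and 45.0 CPM against 59.5, 186 and 387 CPM. The cold-inducible RNA-binding genes Cirbp and Rbm3 fell by 0.91 ± 0.21 and 0.76 ± 0.21.

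Of the cell cycle list 4 of 22 rose and 0 fell, a total share close to the 19.1% called over all genes. Over all genes 10.3% were called higher and 8.78% lower. E2f1, which drives entry into S phase, lay at 1.34, 1.79 and 2.04 CPM against 0.350, 0.464 and 0.918 CPM and rose by 1.64 ± 0.32 without overlap. E2f2, Mki67 and Mcm5 rose by 1.14, 1.17 and 0.97, with adjusted p of 0.017, 0.044 and 0.048. Of the list 1 gene was called with the block and 2 with pairs summed, with 1 left without low library 3, 2 without low library 1, 2, 5 or 6, and 2 without high library 2 or 3. Without high library 3 Mki67 had an adjusted p of 0.55.

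Further large falls were found in genes of low level. Fam222a lay at 0.0996, 0.370 and 0.596 CPM against 2.72, 4.07 and 10 CPM and fell by 3.78 ± 0.49 (adjusted p = 3.3e-07). The phosphate carrier Slc34a2 fell by 2.40 ± 0.47 and the activin antagonist follistatin (Fst) by 2.38 ± 0.59, both without overlap. The phosphatase Dusp8 fell by 2.53 ± 0.56 with overlapping groups, and was not called with the block (adjusted p = 0.063). Dmbt1, a scavenger-receptor glycoprotein, was at 0 CPM in the median high library and at 0.0396 CPM in the median low library, and low library 4 held 20.4 CPM, so that its fitted fall of 6.86 ± 2.12 rests on few libraries and was not called with the block (adjusted p = 0.42), with pairs summed (0.18), by DESeq2 (0.14) or without low library 4 (0.36). The leptin receptor Lepr lay at 9.71, 19.2 and 45.0 CPM on high and at 55.9, 97.7 and 138 CPM on low isoleucine, without overlap, and fell by 2.20 ± 0.48 (adjusted p = 0.00068).

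**Figure D4:**
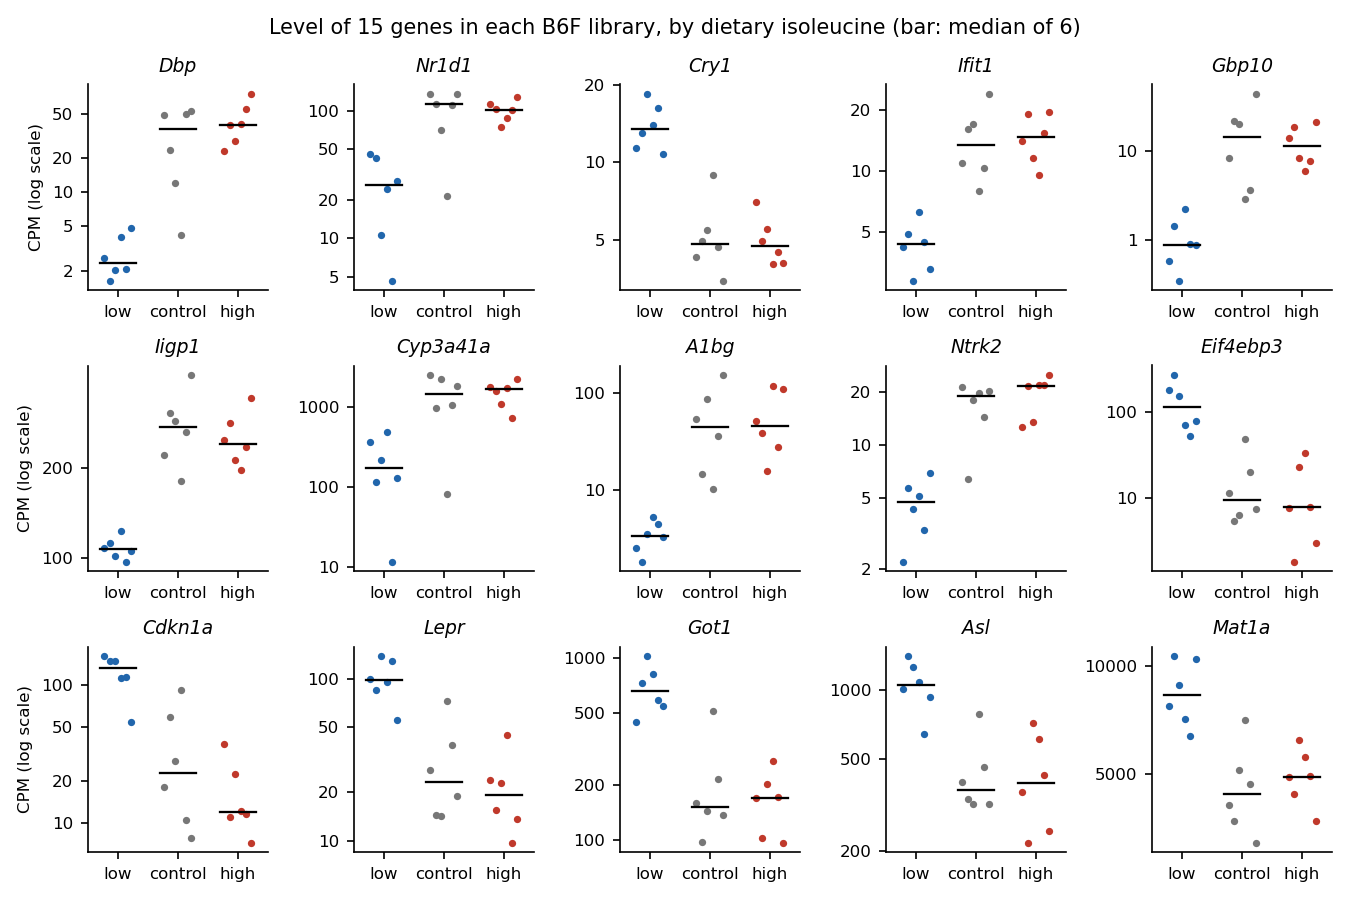
Each point is a B6F library, grouped by dietary isoleucine, with the level in CPM on a log axis and a bar at the median of 6. In all 15 genes except Asl the high libraries lie on one side of every low library, and the control medians lie near the high medians.

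Of 20 genes of gluconeogenesis and fasting 8 fell and 1 rose, with a median of -0.34. Ppargc1a, the coactivator that switches on fasting genes, lay at 6.94, 10.5 and 13.8 CPM against 12.5, 23.6 and 82.7 CPM and fell by 1.78 ± 0.31 (adjusted p = 3.4e-05). Igfbp1 and the growth-arrest genes Gadd45g (2.54 ± 0.63) and Gadd45b (1.58 ± 0.37) fell, and so did Foxo1, Irs2, Sik1 and the glucose-6-phosphate carrier Slc37a4. Gadd45g was 108 CPM in low library 1 against a low median of 11.3 CPM, and without that library its log2 fold change was -1.50 (adjusted p = 0.069). It was also not called with only the 12 libraries in the fit (0.061). Igfbp1, at 370 CPM in low library 1, was not called without it (0.064) or with pairs summed (0.14). Gadd45a rose by 1.39 ± 0.36. The rate-limiting enzyme Pck1 lay at 1520, 2360 and 2860 CPM against 1850, 2380 and 3820 CPM and did not pass (-0.17 ± 0.19, adjusted p = 0.57), nor did G6pc (-0.41, adjusted p = 0.29). In glucose handling Ugp2, which makes the donor for glycogen, and the glucokinase regulator Gckr rose by 0.76 ± 0.13 and 0.65 ± 0.13 without overlap. The glycogen-targeting subunit Ppp1r3g fell by 2.38 ± 0.72, although not with the block (adjusted p = 0.3) or without low library 4 (0.094).

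Lipid genes moved in both directions. Of 22 fatty acid synthesis genes 3 rose and 4 fell, beside 10.3% higher and 8.78% lower over all genes. With scaling by library totals 5 rose and 2 fell. The carbohydrate sensor Mlxipl (ChREBP) lay at 278, 297 and 464 CPM against 130, 207 and 252 CPM and rose by 0.78 ± 0.19 (adjusted p = 0.0023), and its target Pklr rose by 0.84 ± 0.22, both without overlap. The desaturase Scd1 lay at 2760, 3950 and 6370 CPM against 996, 1700 and 3690 CPM and missed the threshold (1.18 ± 0.49, adjusted p = 0.083, or 0.042 without low library 4), as did Srebf1 (0.58 ± 0.29) and Fasn (0.25 ± 0.24). The phosphatidate phosphatase Lpin1 fell by 1.47 ± 0.45, with overlapping groups (25.8 to 162 CPM against 38 to 544 CPM). Lpin1 was not called without low library 2 (adjusted p = 0.094) or with only the 12 or the 18 B6F libraries in the fit. Its highest adjusted p among the alternatives was 0.18. The acyltransferase Agpat2 fell by 0.37 ± 0.11. With pairs summed 2 of the list were called.

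Of 21 genes that hold or break down stored fat 5 fell and 3 rose, beside 8.78% lower and 10.3% higher over all genes. With scaling by library totals 4 fell and 6 rose. Pnpla2, the first lipase of triglyceride breakdown, lay at 57.9, 76.5 and 87.6 CPM against 106, 164 and 182 CPM and fell by 1.01 ± 0.16 (adjusted p = 8.8e-06). The droplet coat protein Plin5 fell by 0.95 ± 0.18, the acyltransferase Dgat1 by 0.58 ± 0.12 and the lipase inhibitor Hilpda by 0.92 ± 0.23. Cidec, which fuses droplets, fell by 1.16 ± 0.42 with no overlap (9.52 to 25.7 CPM against 27.8 to 58.4 CPM), but its adjusted p of 0.045 was not kept under 12 of 23 alternatives. Mogat1, Fitm1 and Plin3 rose. Of 33 PPARA targets 4 rose and 5 fell, beside 19.1% called over all genes. The fatty acid hydroxylases Cyp4a10, Cyp4a14 and Cyp4a31, near copies of each other, fell by 0.63 ± 0.13, 0.74 ± 0.17 and 1.15 ± 0.27. The ketone enzyme Bdh1 rose by 0.97 ± 0.14.

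Of 21 genes of bile acid synthesis and transport 2 rose and 3 fell, beside 19.1% called over all genes, with a median of 0.03. Cyp8b1, which sets the share of cholic acid, lay at 311, 408 and 511 CPM against 687, 840 and 906 CPM. It fell by 1 ± 0.18 on the log2 scale, with an adjusted p of 3.8e-05. Cyp39a1 and Cyp27a1, of the alternative routes, fell by 1.54 ± 0.32 and 0.48 ± 0.11, again without overlap. Cyp7a1, the rate-limiting enzyme, lay at 64.3, 87.3 and 214 CPM against 181, 251 and 308 CPM and did not pass (-1.03 ± 0.41, adjusted p = 0.066), but did without high library 4 (0.032) or 5 (0.039). The uptake carrier Slco1b2 rose by 0.56 ± 0.13 and the bile salt export pump Abcb11 by 0.54. Of 25 cholesterol genes 5 rose and 1 fell, beside 19.1% called over all genes. Among them were Sc5d (0.79 ± 0.15) and Acat2 (0.48 ± 0.13) as rises and Hsd17b7 (-0.81 ± 0.22) as the fall.

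The called shares of the lists in this paragraph were close to or below the 19.1% called over all genes. In the glutathione and NRF2 list 4 of 20 rose and 0 fell. Over the whole list the groups did not overlap for 4 members with high above low and for 1 with high below low. For all genes tested that share was 8.07% in either direction. The 4 that rose were both subunits of the enzyme that limits glutathione synthesis, Gclc (0.91 ± 0.18) and Gclm (0.50 ± 0.11), Osgin1 (1.23 ± 0.31) and G6pdx (0.57 ± 0.18). None of these 4 had overlapping groups. Gclc lay at 193, 270 and 360 CPM against 121, 140 and 172 CPM. Acute phase genes gave 4 rises and 1 fall of 24, with Saa4, a serum amyloid of high-density lipoprotein, at 213, 269 and 382 CPM against 52.9, 101 and 139 CPM (1.51 ± 0.20, adjusted p = 4.2e-07). Steap4 and Cxcl1 rose by 1.03 ± 0.21 and 1.75 ± 0.35. Of 16 CAR and PXR targets Cyp2b10, which has near copies, fell by 2.17 ± 0.69, Por fell by 0.72 ± 0.24 and Cyp2c55 rose by 1.85 ± 0.54. Cyp2b10 was not called with pairs summed (adjusted p = 0.12), by DESeq2 (0.058) or without low library 2 (0.059). Por was not called with the block (0.071), with pairs summed (0.1), without low library 2, 3 or 4 or without high library 2 (0.055 to 0.08). Of 14 amino acid transporters Slc43a1 and Slc16a10 fell by 1.31 ± 0.26 and 0.63 ± 0.14. In oxidative phosphorylation 2 of 32 fell, cytochrome c (Cycs, -0.57 ± 0.12) and Cyc1 (-0.32 ± 0.08), and in the unfolded protein response 0 of 21 passed, with log2 fold changes of -0.52 to 0.21. Sinusoidal endothelial markers gave 3 falls of 15 (Flt1, Bmp2 and Lyve1), 0 of which was called with the block, with pairs summed or with scaling by library totals, stellate cell and matrix genes 2 rises of 20 (Col3a1 and Lrat, which lost their calls in 10 and 12 of 23 alternatives), and cholangiocyte markers 0 of 8.

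The control livers lay nearer to the high than to the low isoleucine livers. These comparisons share libraries with the one above, so their values are given side by side. Between high isoleucine and control 0 genes (0%) passed, with 846 at an unadjusted p under 0.05, a lowest adjusted p of 0.42 and 2 calls by DESeq2. Between low isoleucine and control 3115 genes (20.8%) passed, 1425 higher and 1690 lower on low. Without control library 4 the counts were 0 and 3703. Of the 2857 genes called between high and low, the control mean lay nearer to the high mean on the log2 scale in 2597 (90.9%), and in 2657 (93%) without control library 4. Dbp lay at a control median of 36.2 CPM, with log2 fold changes of 0.45 ± 0.44 for high and -3.48 ± 0.51 for low against control. For Ifit1 these were 0.05 ± 0.27 and -1.73 ± 0.29, and for Cdkn1a -1.07 ± 0.57 and 1.79 ± 0.57. For Treh, the trehalase, whose control mean lay nearer to the low mean, they were -2.30 ± 0.67 and 0.85 ± 0.53, neither of which passed.

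In B6M, 3869 genes (25.9%) passed between high and low isoleucine, and in DBAF 2223 (14.9%), each from 12 libraries that the B6F comparison does not use. Of the genes called in B6F, 1162 (40.7%) were called in the same direction in B6M, where they made up 30% of the calls, and 31 in the opposite direction. In DBAF 1149 were shared in direction, 40.2% of the B6F and 51.7% of the DBAF calls, and 1 was opposite. Dbp rose in B6M (3.35 ± 0.49) and DBAF (2.94 ± 0.48), Ifit1 rose in both (1.20 ± 0.28 and 2.21 ± 0.28), and Cdkn1a fell in both (-3.14 ± 0.63 and -2.21 ± 0.58). Of the interferon list 13 of 33 members rose in B6M and 31 in DBAF, and of the 26 female-biased genes 2 rose and 8 fell in B6M while 6 rose and 1 fell in DBAF.

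The effect itself was tested for a difference between classes. The effect in B6F differed from that in B6M for 633 genes (4.23%), 301 with a more positive and 332 with a more negative value in B6F, but for 33 with pairs summed. The effect in B6F differed from that in DBAF for 0 genes (0%), with 1193 at an unadjusted p under 0.05, a lowest adjusted p of 0.051 and 23 calls by DESeq2. A1bg had an effect of 4.15 ± 0.61 in B6F and of -2.86 ± 1.4 in B6M, which did not pass there (adjusted p = 0.12). The difference was 7.01 ± 1.41 (adjusted p = 0.0021), at means of 0.0676 CPM on high and 0.619 CPM on low isoleucine in B6M. The female-biased cytochromes Cyp2c69 and Cyp2c40, near copies, differed by 5.24 ± 0.84 and 3.87 ± 0.68; they fell in B6M (-4.57 ± 0.67 and -3.51 ± 0.53) and did not pass in B6F (0.67 ± 0.50 and 0.36 ± 0.44). Mt2 fell in B6F (-2.63 ± 0.51) and rose in B6M (1.32 ± 0.49, adjusted p = 0.04), a difference of -3.95 ± 0.71 (adjusted p = 0.00084). Nr4a1 fell in B6F and lay at 1.17 ± 0.47 in B6M (adjusted p = 0.054), a difference of -3.84 ± 0.66. The fat-storage gene Cidea and Cfd, one of the adipose tissue markers, rose in B6M (8.35 ± 0.78 and 10.47 ± 1.09). In the high and low B6F libraries Cidea lay at no more than 0.222 CPM and Cfd at no more than 3.41 CPM. Pnpla2 and Cidec differed by -1.05 ± 0.23 and -2.17 ± 0.60, and Srebf1 by -1.33 ± 0.41, with a rise of 1.91 ± 0.30 in B6M. For the cytochromes Cyp3a41b and Cyp3a16 the high and low B6M libraries were at 0 CPM, and no fold is given there.

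**Figure D5:**
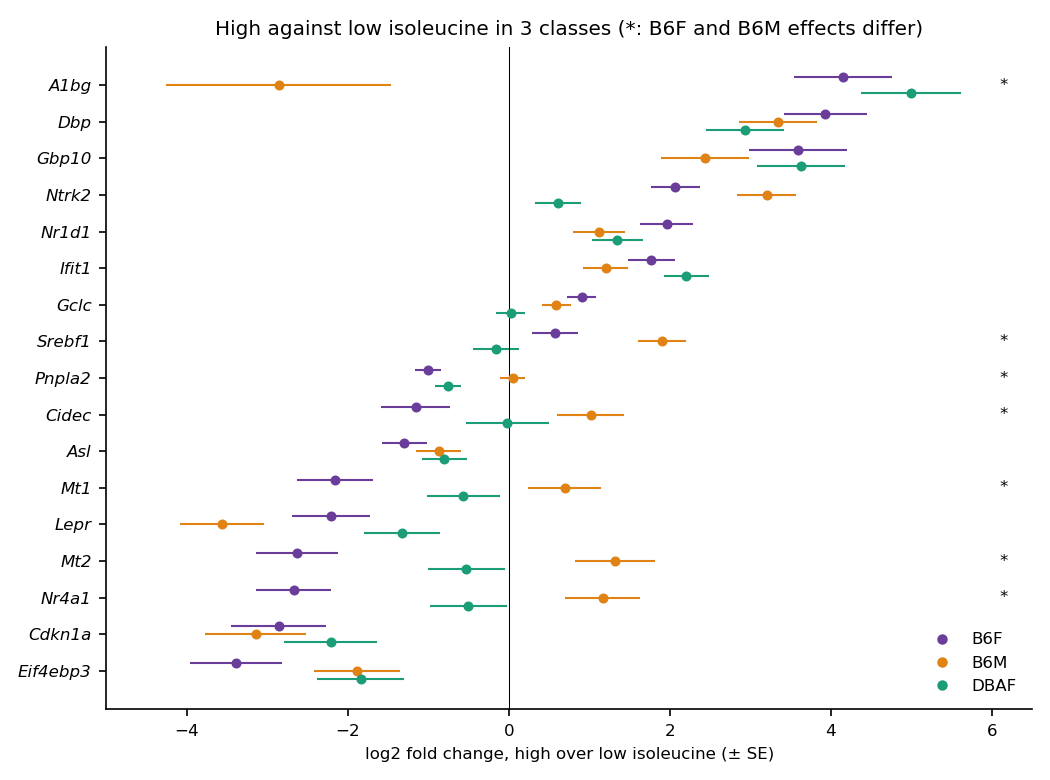
Points are log2 fold changes of high over low isoleucine in B6F, B6M and DBAF livers with their standard errors, for 17 genes in the order of the list on the left axis, and an asterisk marks a difference between B6F and B6M at an adjusted p under 0.05. Dbp, Ifit1, Cdkn1a and Eif4ebp3 lie on the same side of 0 in all 3 classes, whereas A1bg, Mt1, Mt2, Nr4a1 and Cidec lie on opposite sides in B6F and B6M. In B6M the effects of A1bg, Nr4a1 and Cidec did not pass (adjusted p = 0.12, 0.054 and 0.064).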

How the data were processed

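Per the labels' protocols, the authors aligned liver RNA reads to GRCm38.p5 and estimated expected counts for Ensembl genes. Which aligner and counter they used is not given in the sources used here. R 3.4.3 with limma and edgeR is named in the submitters' processing notes. Of the library preparation, 1 label speaks of stranded mRNA after polyA enrichment and a different label of a guide for stranded total RNA. Of the deposited expected counts 9.56% of nonzero values were not whole, and all were rounded. The last line of the table is incomplete and was left out (50307 of 50308 genes used), and 52 identifiers without a symbol held 0.017% of counts. The authors' own comparison tables were not used here.

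Genes were filtered with filterByExpr by group, scaled by TMM (factors 0.841 to 1.14) and tested with edgeR's quasi-likelihood test (robust, 72 libraries and 12 groups in 1 fit), with Benjamini-Hochberg adjustment over the 14954 genes and a threshold of 0.05. Fold changes are log2 values with standard errors (SE) from that fit. The test was also run on simulated counts drawn independently for each library, which do not cover libraries that deviate together. High and low share no title number, so the number could enter only as a random block (correlation 0.244) or by summing. Software was R 4.3.3 with edgeR 4.0.16, DESeq2 1.42.0, data.table in version 1.17.8 and limma 3.58.1. Promoter sequences are from RefSeq (GRCm38.p6).

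The 47 gene lists, the members and the tests were chosen with earlier results of these data known. Genes were named by rule: the 10 largest rises and falls among called genes whose mean reached 1 CPM, in each list the called members with the smallest adjusted p, up to 4, a fixed panel whatever its test, and the largest differences each way between classes, 163 in all. A few genes in these counts are not reported here. Other list members named were chosen after their values were seen. Alternatives were other scalings, other filters, DESeq2, limma voom with quality weights, fewer libraries in the fit, the title number or letter in the fit, and leaving out each library in turn. The recount of each list, and the control position without control library 4, were added after seeing the data.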

Additional observations from a re-analysis of the deposited data

Results flagged for a closer look

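In 16 of 326 groups of 6 libraries examined over the named genes, the highest or lowest library stood apart, with a gap to the next library, as a share of the group's range, above Dixon's critical value for 6 values. Chance flags about 1 in 20 groups, and the 16 were spread over 10 of the 12 libraries. On the high side in the high group were Dmbt1 (1 of the range in library 3, at 0.17 CPM with the others at 0), Marco (0.650, library 3, at 184 CPM), Ciita (0.664, library 1), Igfals (0.630, library 6), Oas2 (0.737, library 6) and Flt1 (0.677, library 4). On the low side in the high group were Alb (0.663, library 4) and Lyve1 (0.696, library 6). In the low group Gdf15 (0.685, library 1), Asns (0.638, library 2), Cyp2c55 (0.798, library 4), Psmb10 (0.655, library 4), Slc43a1 (0.686, library 3) and Rraga (0.739, library 5) had a high library, and Cdkn1a (0.660, library 6) and Cirbp (0.776, library 2) a low one.

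The effect of high against low isoleucine differed between B6F and B6M by the interaction test for 633 genes. Among the named genes reported here the difference, B6F minus B6M on the log2 scale, was positive for A1bg (7.01), Cyp2c69 (5.24), Cyp2c40 (3.87), Klhdc7b (1.86), Klf10 (1.86), Cyp4a14 (1.02), Nr1d2 (0.85), Fas (0.77) and Dnaja1 (0.55). It was negative for Cidea (-9.85), Cfd (-9.83), Treh (-4.41), Mt2 (-3.95), Nr4a1 (-3.84), Dusp8 (-3.12), Mup17 (-2.94), Mt1 (-2.85), Fam222a (-2.61), Cidec (-2.17), Srebf1 (-1.33), Pnpla2 (-1.05) and Agpat2 (-0.58).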

How the results depend on the processing

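With the number in the title as a random block (limma voom) 1760 genes were called between high and low isoleucine in B6F, against 2823 by voom without the block. No paired analysis was possible because high and low libraries share no title number. With the counts of each same-numbered pair summed the calls were 1478 for high against low, 1626 for low against control, 1791 for high against low in B6M, 951 in DBAF and 33 for the difference between B6F and B6M. DESeq2 called 2 genes between high isoleucine and control and 23 for the difference between B6F and DBAF, where edgeR called 0. Leaving out each library in turn gave 2206 to 2875 calls between high and low, with the lowest count without low library 3. The other alternatives run stayed within 1.5 times the counts given, 2232 without a count filter and 3755 with voom and quality weights at the ends. The 163 named genes include some, such as panel genes, that had no call to lose. Of those called, 28 lost their call with the block, 35 with pairs summed and 4 to 15 when a single library was left out. None of the 163 changed sign under any alternative run. Beyond the lists described with such values, summing pairs lowered the members called from 8 to 5 for lipid droplets, from 6 to 2 for insulin and glucose handling, from 5 to 3 each for the acute phase, the growth hormone axis and p53 targets, and from 3 to 1 each for ATF4 targets and CAR and PXR targets. Other settings raised list counts by more than 1.5 times: with only the 12 libraries in the fit to 10 for cholesterol, 7 for NRF2, 7 for CAR and PXR targets, 8 for the acute phase and 5 for male-biased genes, and with voom and quality weights to 9 for bile acids, 5 for aromatic amino acids and 5 for endothelial markers. Single genes not called with pairs summed, beyond those given with their values, included Acadsb, Acat2, Agpat2, Alb, Ccng1, Cyc1, G6pdx, Gars, Hsd17b10, Itih3 and Lpin1, with adjusted p between 0.055 and 0.11, and G6pdx and Hsd17b10 were also not called with the block. Igfals was not called without high library 6 (0.051), Mup3 without low library 1 (0.056), Pcca without low library 5 (0.057) or Rbm3 with only the 18 B6F libraries (0.064). The median log2 fold change was -0.0021 with RLE scaling. Counts were few for genes such as Asns, Dmbt1 and Cidea, which limits the precision of their fold changes.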
